A study of Homo sapiens with 6 samples.

Results

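Chemokines, interleukins, their receptors and a small set of NF-κB genes were examined in the RNA-seq of H1299 cells with and without depletion of Ephexin1. The members were taken by gene symbol, under a rule set when earlier results of these data were known. They were every gene named CXCL, CXCR, CCL, CCR, CX3CL1, CX3CR1 or ACKR with a number, every gene whose name begins with IL and a number, and LIF, LIFR, OSMR, CSF1, CSF2, CSF3, NFKBIA, NFKB1, NFKB2, RELB and TNFAIP3. This gave 156 genes of the 26255 genes listed (0.594%). H1299 is a cell line from a human lung carcinoma, grown here in RPMI-1640 with fetal bovine serum. The control group (shControl, n = 3 libraries) carried a control shRNA and the knockdown group (shEphexin1, n = 3 libraries) an shRNA against Ephexin1, both from a pSilencer plasmid with a U6 promoter after stable selection. The study describes knockdown clones, and the library names of the shEphexin1 group share a stem, which leaves it possible that they are repeats of 1 clone. The p values then describe the spread between these libraries and not between independent knockdown cells.

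Levels are given in FPKM, which scales fragments to the length of the transcript and the size of the library, and the depth behind each level is unknown. Between 16958 and 17509 genes were above 0 FPKM in a library. Ephexin1, listed as NGEF, was at 13.3, 11.7 and 16.4 FPKM in the controls and 9.81, 8.25 and 10.5 FPKM in the knockdown libraries, 0.689 times the control mean (limma adjusted p = 0.103). The groups did not overlap, but NGEF was not called. The cells held transcripts of the intermediate filaments KRT18 (67.6 to 109 FPKM in shControl) and VIM (1979 to 2334 FPKM in shControl), whereas the epithelial markers CDH1 and EPCAM were at 0 and at no more than 0.220 FPKM in any library. The 5 epithelial markers summed to between 72.8 and 118 FPKM in the controls and between 39.2 and 58.4 FPKM in shEphexin1. KRT8 and KRT18 made up nearly all of this sum, and its part in the results below was not tested. The leukocyte markers PTPRC, CD3D, CD3E and MS4A1 were listed at 0 in every library. The sum of the leukocyte markers, between 38.3 and 55.0 FPKM in the controls and between 55.3 and 72.6 FPKM in shEphexin1, was almost all CD68, and its part in the results was not tested either. The 5 fibroblast markers summed to no more than 0.882 FPKM in any library and the 4 endothelial markers to no more than 0.590 FPKM. Replicate 2 of both groups stood apart: its deviation from the group mean fell with the GC content of the gene (Spearman's rho across genes of -0.697 in shControl and -0.762 in shEphexin1), and that of the other 4 libraries rose with it (rho from 0.343 to 0.667). Values for replicates 1 and 3 alone are therefore given beside the named genes whose adjusted p they move across 0.025.

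Chemokines are small secreted proteins that guide migrating cells through G protein-coupled receptors, and interleukins signal through single-pass receptors that assemble in pairs around shared chains. The NF-κB transcription factors, dimers of RELA, RELB, REL, NFKB1 and NFKB2 products, drive many chemokine and interleukin genes and also their own inhibitors NFKBIA and TNFAIP3. Tumour cells of epithelial origin can make and sense several of these factors without any leukocyte being present.

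Of the 156 members, 58 reached 0.1 FPKM in at least 3 libraries and were tested. The other 98 were under this filter, and 65 of them were listed at 0 in all 6 libraries. A further 12 reached 0.1 FPKM in only 1 or 2 libraries, none above 0.502 FPKM, and the last 21 stayed below it. A 0 is given only as listed, since it can be a failed estimate: the histone gene H3F3A was at 0 in 6 of 6 libraries too. The ligands CXCL12, CXCL10, CCL2, IL6 and IL24 and the receptors CXCR1, CXCR2, ACKR3 and IL2RG were among the 65, all named after their values were seen. Chemokines made up 30 of the 98 genes, chemokine receptors 16, interleukin ligands 30, interleukin receptors 21, and CSF3 was the last. Each of the 58 genes tested reached 0.1 FPKM in at least 1 library of both groups.

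In shEphexin1, 3 members rose (IL1B, IL32 and IL6R) and 1 fell (CXCR4) at the thresholds used by the study (limma adjusted p no higher than 0.025 and a fold of 2 or more). IL1B, the secreted inflammatory cytokine interleukin-1β, rose to 4.76 times its control mean, IL32, an inflammatory cytokine, to 4.36 times, and IL6R, the binding chain of the interleukin-6 receptor, to 2.28 times. CXCR4, the receptor of the chemokine CXCL12, fell to 0.132 times its control mean. In these bulk libraries, fewer cells with a transcript and less of it per cell cannot be told apart. Of all 16020 genes tested, 1.89% were called, 0.893% as higher and 0.999% as lower. At an adjusted p up to 0.05 with no fold threshold, 9 members were higher and 1 was lower, where the shares of all genes were 2.69% and 4.32%. The 10 genes were CXCR4, IL37, IL32, IL1B, CXCL1, RELB, IL6R, TNFAIP3, IL4R and CCL5. The fitted coefficient was above 0 for 43 of the 58 members and for 48.9% of all genes, and the median log2 fold change was 0.35 over the members and -0.0093 over all genes. The libraries of the groups did not overlap for 27 members, 21 with shEphexin1 higher and 6 with shEphexin1 lower, where the share of all genes was 28.3% (12.8% higher and 15.4% lower).

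**Figure D1:**
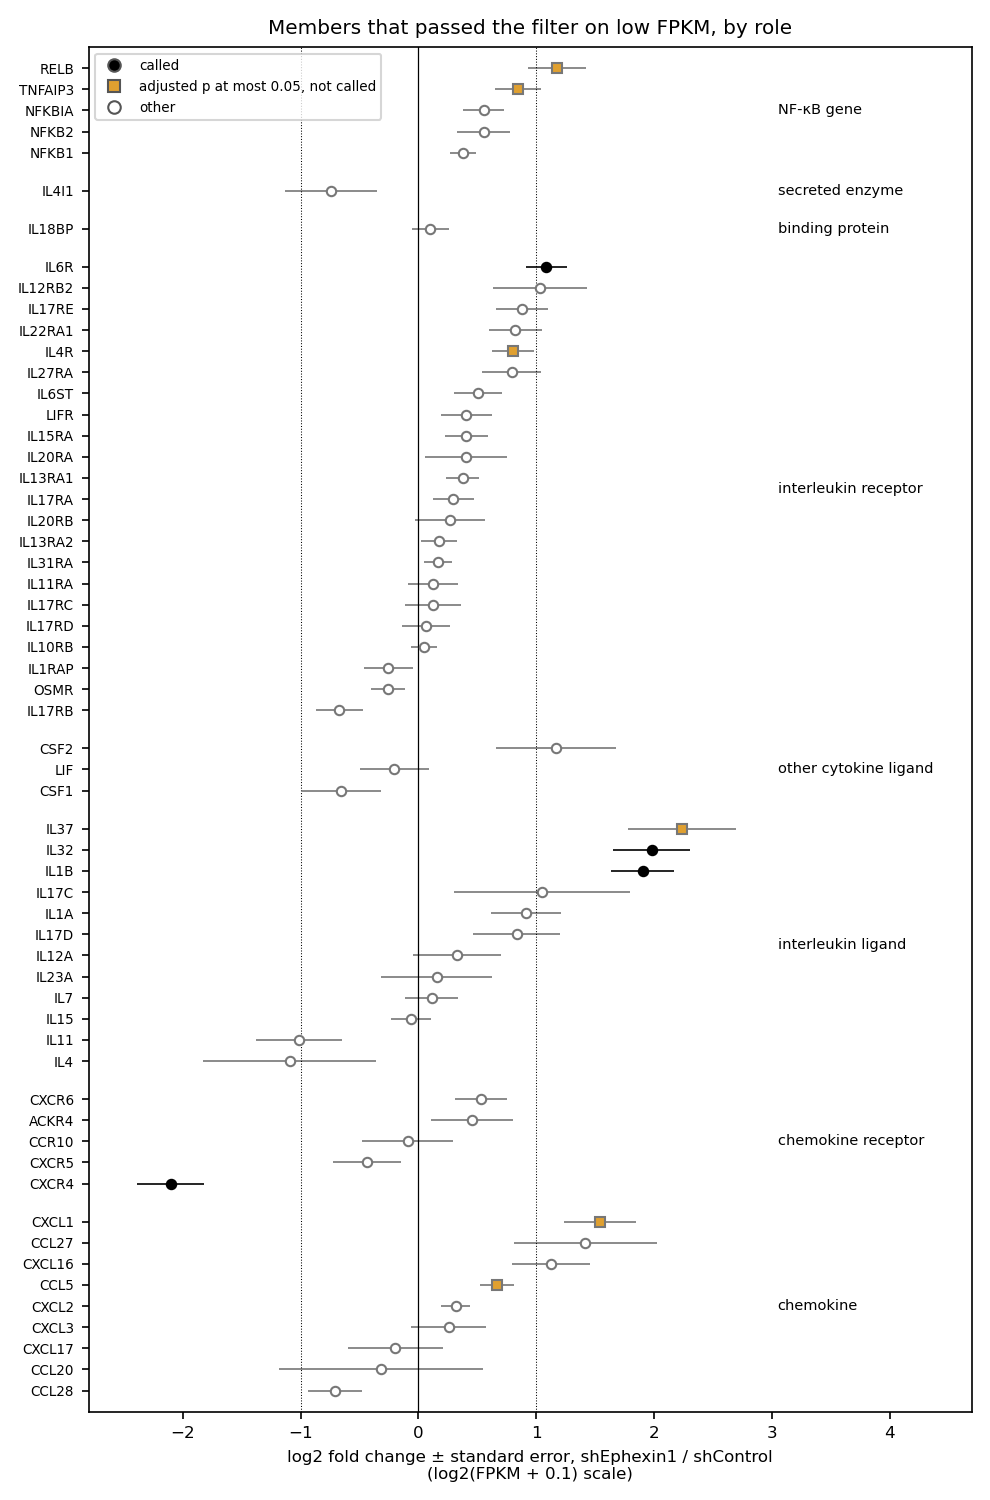
Log2 fold change (shEphexin1 against shControl, on the log2(FPKM + 0.1) scale) with the standard error (SE) of the moderated model for the 58 members tested, grouped by role, with dotted lines at a fold of 2. The 4 called genes are CXCR4 at -2.10 and IL6R, IL1B and IL32 at 1.09, 1.90 and 1.98, and all 5 NF-κB genes lie above 0.

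The number of calls fell when a library other than shEphexin1 replicate 2 was left out, over all genes as well as among the members. Without shEphexin1 replicate 2 it rose, from 303 to 316 genes and from 4 to 5 members. The folds of the 4 called genes moved little. Across the 6 fits with 1 library left out, the log2 fold change lay between -2.289 and -1.995 for CXCR4 and between 1.72 and 2.03 for IL1B. It lay between 1.72 and 2.27 for IL32 and between 1.03 and 1.14 for IL6R. Without shControl replicate 1, without shControl replicate 3, without shEphexin1 replicate 1 or without shEphexin1 replicate 3, 0 members were called by limma, and 20, 25, 21 and 23 members had an unadjusted p up to 0.05. With all 6 libraries 23.3% of all genes had such a p, and their share in these fits was not taken. In these fits 0.381%, 0.755%, 0.493% and 0.68% of all genes were called, so that the count of 0 among 58 members is near the share of all genes. The number was 2 without shControl replicate 2 (1.18% of all genes) and 5 without shEphexin1 replicate 2 (1.97% of all genes). With replicates 1 and 3 alone, 7 members were called (2.68% of all genes, 1.46% higher and 1.22% lower), the same 4 and also RELB, CXCL1 and IL37. A model with a term for replicate 2 called the same 7 genes (3.52% of all genes, 1.95% higher and 1.57% lower). Each of these 7 genes moved in the same direction between the libraries of replicate 2. The same count was not taken over all genes called from replicates 1 and 3, so this only describes the 7 genes. In the comparison of 2 libraries with 2 (replicates 1 and 3 alone), the groups did not overlap for 43 members and for 61.8% of all genes.

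**Figure D2:**
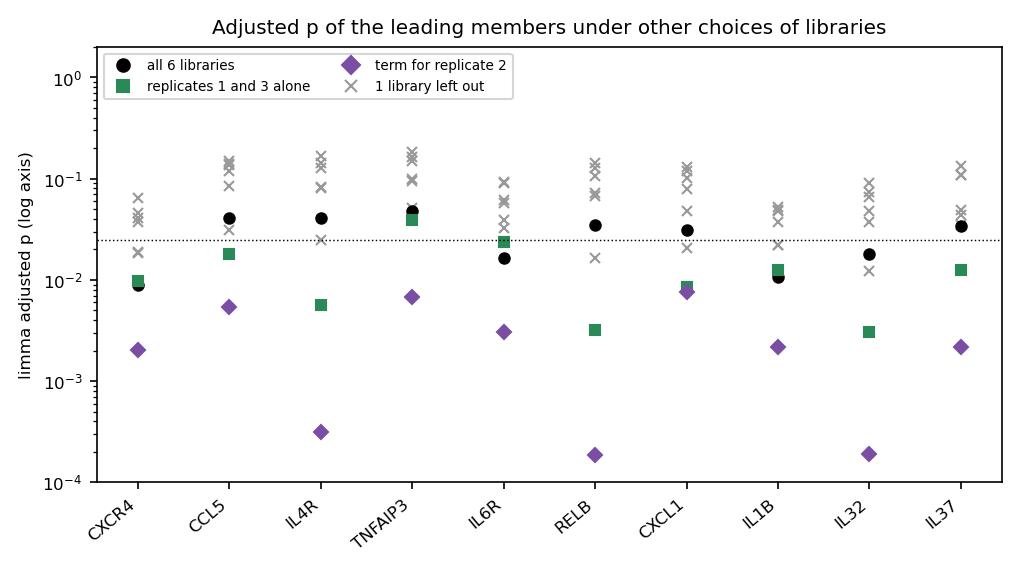
The limma adjusted p (log axis) of the 10 members at 0.05 or below, for all 6 libraries (black circles), replicates 1 and 3 alone (green squares), a model with a term for replicate 2 (purple diamonds) and each library left out in turn (grey crosses), with a dotted line at 0.025. The purple diamonds lie under the line for all 10 genes. The crosses reach 0.052 for IL1B and 0.0647 for CXCR4, the lowest maxima of the 10 genes, and 0.1825 for TNFAIP3, the highest.

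The 5 NF-κB genes all had a higher mean in shEphexin1, with a median log2 fold change of 0.55, and none was called with all 6 libraries. RELB (chromosome 19, 45504719 to 45541450 on GRCh37, the build of all gene positions given), the transcription factor subunit of the noncanonical pathway, was at 9.87, 7.06 and 11.1 FPKM in the controls and 23.0, 15.2 and 26.1 FPKM in the knockdown libraries. The lowest knockdown library lay above the highest control library, the mean ratio was 2.29, and the log2 fold change was 1.18 (SE 0.245, adjusted p = 0.0352). With replicates 1 and 3 alone RELB rose (log2 fold change of 1.22, adjusted p = 0.00318). NFKB2, whose p100 precursor is processed to the partner of RELB, was at 13, 9.31 and 14.9 FPKM in the controls and 19.0, 13.8 and 21.9 FPKM in the knockdown libraries (log2 fold change of 0.55, adjusted p = 0.200). Its groups overlapped, and replicate 2 was the lowest library of both.

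NFKB1, the precursor of the canonical p50 subunit, was at 13.4, 12 and 12.5 FPKM in the controls and 16.8, 15.2 and 17.3 FPKM in the knockdown libraries (log2 fold change of 0.38, adjusted p = 0.0926). NFKBIA encodes IκBα, which holds NF-κB in the cytoplasm. It was at 12.1, 9.11 and 12.6 FPKM in the controls and 16.9, 14.0 and 18.8 FPKM in the knockdown libraries (log2 fold change of 0.55, adjusted p = 0.105, 0.0184 with replicates 1 and 3 alone). TNFAIP3, the ubiquitin-editing enzyme A20 that ends NF-κB signalling, was at 0.995, 0.778 and 1.10 FPKM in the controls and 1.87, 1.58 and 1.93 FPKM in the knockdown libraries, a mean ratio of 1.87 (log2 fold change of 0.85, adjusted p = 0.0483). For these last 3 genes every knockdown library was above every control library, and their mean ratios were between 1.30 and 1.87. With the term for replicate 2 the adjusted p was 0.00587 for NFKB1, 0.00327 for NFKB2, 0.0018 for NFKBIA and 0.00683 for TNFAIP3. None of these genes was called in that fit, as their folds were under 2. That fit called 564 of all genes in place of 303, and the share of all genes at such a p was not taken.

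**Figure D3:**
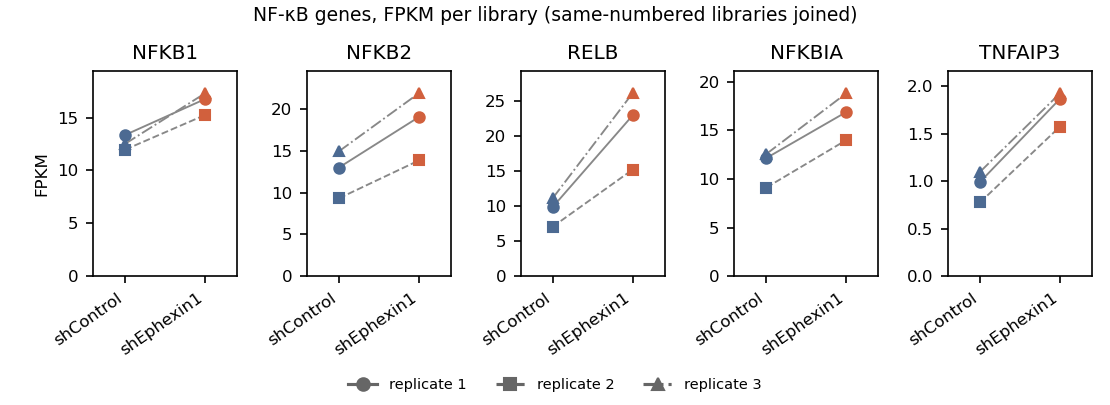
FPKM of the 5 NF-κB genes in each library, with same-numbered shControl and shEphexin1 libraries joined (circles, replicate 1; squares, replicate 2; triangles, replicate 3). Each line rises, and replicate 2 is the lowest library of its group in every panel, as for RELB at 7.06 and 15.2 FPKM.

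Upstream sequence was read for the leading ligands and the NF-κB genes, because these genes include known NF-κB targets. The promoters are those of RefSeq on GRCh38.p14, from 250 bases before to 50 bases after the gene start, and 45 of the 58 members tested matched an entry. The canonical NF-κB decamer was searched by its consensus on both strands, and overlapping matches were allowed. It was found in 15 of these 45 promoters (33.3%), in 10.8% of all 27305 promoters and in 12.7% of those of all genes tested. Over all members listed it was found in 28 of 118 promoters (23.7%). The set was chosen with known NF-κB targets in it, so a share above that of all genes does not bear on the changes. The cause of the changes was not tested. For the NF-κB genes the decamer was found in NFKB1, NFKBIA and TNFAIP3 and not in NFKB2, and RELB had no entry. The 120 bases before the start are printed for the CXCL1, CXCL2 and CXCL3 genes, which share a match, for IL32, NFKB1, NFKBIA and TNFAIP3, which hold at least 1, and for the called genes IL1B and CXCR4, where the 300 bases hold none. The promoter of IL6R holds none either, so a match was found in 1 of the 4 called genes. Capitals mark the matches, and the letters alone do not show binding.
CXCL1: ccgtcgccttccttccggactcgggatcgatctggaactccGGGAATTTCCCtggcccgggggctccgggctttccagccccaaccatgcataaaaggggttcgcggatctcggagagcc
CXCL2: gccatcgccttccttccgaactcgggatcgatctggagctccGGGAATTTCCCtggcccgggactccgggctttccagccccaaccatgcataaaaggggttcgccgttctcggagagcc
CXCL3: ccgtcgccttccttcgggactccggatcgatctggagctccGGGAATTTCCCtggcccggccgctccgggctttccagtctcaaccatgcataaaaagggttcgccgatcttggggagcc
IL32: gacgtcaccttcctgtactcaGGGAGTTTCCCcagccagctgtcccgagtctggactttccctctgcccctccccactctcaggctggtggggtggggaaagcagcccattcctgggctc
NFKB1: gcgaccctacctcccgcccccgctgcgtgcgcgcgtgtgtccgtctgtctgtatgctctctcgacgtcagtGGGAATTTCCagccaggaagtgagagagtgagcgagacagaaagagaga
NFKBIA: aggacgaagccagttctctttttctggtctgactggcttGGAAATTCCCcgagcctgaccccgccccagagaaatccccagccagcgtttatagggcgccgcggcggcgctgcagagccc
TNFAIP3: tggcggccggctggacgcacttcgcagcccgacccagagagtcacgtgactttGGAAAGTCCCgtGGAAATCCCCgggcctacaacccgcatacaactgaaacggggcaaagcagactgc
IL1B: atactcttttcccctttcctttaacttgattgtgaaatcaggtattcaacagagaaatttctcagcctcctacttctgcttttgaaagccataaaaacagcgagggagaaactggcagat
CXCR4: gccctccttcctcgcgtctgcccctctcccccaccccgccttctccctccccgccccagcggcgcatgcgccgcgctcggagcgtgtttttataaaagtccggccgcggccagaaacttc
These stretches lie at chr4:73869273-73869392 (plus strand), chr4:74099196-74099315 (minus strand), chr4:74038690-74038809 (minus strand), chr16:3065283-3065402 (plus strand), chr4:102501239-102501358 (plus strand), chr14:35404750-35404869 (minus strand), chr6:137867139-137867258 (plus strand), chr2:112836780-112836899 (minus strand) and chr2:136118150-136118269 (minus strand). In CXCL1, CXCL2 and CXCL3 the match on the coding strand is the same, GGGAATTTCC, and it begins at positions -79, -78 and -79 from the start, with a second match 1 base further on the other strand. The log2 fold changes of these 3 genes were 1.54, 0.32 and 0.26.

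Among the interleukin ligands, 12 of 42 were tested and 2 were called. IL1B (chromosome 2, 113587328 to 113594393) was at 0.175, 0.322 and 0.290 FPKM in the controls and 1.04, 1.17 and 1.53 FPKM in the knockdown libraries. The groups were far apart, from a mean of 0.262 ± 0.0775 to 1.25 ± 0.255 FPKM (SD of 3 libraries each), with a log2 fold change of 1.90 (SE 0.267, adjusted p = 0.0106). IL1B lost its call without shControl replicate 1 (adjusted p = 0.0520), without shControl replicate 3 (0.0370), without shEphexin1 replicate 1 (0.0474) and without shEphexin1 replicate 3 (0.0494). With a pseudocount of 1 FPKM the log2 fold change of IL1B was 0.83, below the fold threshold. IL1A, which encodes interleukin-1α, lies beside it (113531502 to 113542070). It was at 0.860, 0.970 and 0.424 FPKM in the controls and 1.44, 1.28 and 1.60 FPKM in the knockdown libraries, and was not called (log2 fold change of 0.92, adjusted p = 0.119).

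IL37, an anti-inflammatory member of the same gene cluster (113668742 to 113676459), was at 0.151, 0 and 0.223 FPKM in the controls and 0.934, 0.655 and 0.999 FPKM in the knockdown libraries. Every knockdown library was above every control library, by a mean ratio of 6.91, but at these low levels the adjusted p was 0.0339 (log2 fold change of 2.24, SE 0.459), so IL37 was not called, although it was with replicates 1 and 3 alone (adjusted p = 0.0127) and with the term for replicate 2 (0.00218). The log2 fold change depends on the pseudocount, because shControl replicate 2 was listed at 0. The binding chain of the interleukin-1 receptor, IL1R1, was under the filter at 0.0722, 0.0833 and 0.125 FPKM in the controls and 0, 0.0176 and 0.0209 FPKM in the knockdown libraries. Its accessory chain IL1RAP was at 3.74, 3.89 and 2.75 FPKM in the controls and 2.91, 3.40 and 2.34 FPKM in the knockdown libraries, which overlap.

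IL32 (chromosome 16, 3115298 to 3132193) was at 0.917, 0.499 and 0.944 FPKM in the controls and 3.76, 2.17 and 4.34 FPKM in the knockdown libraries. It had a log2 fold change of 1.98 (SE 0.327, adjusted p = 0.0179) and was higher in every same-numbered pair, though replicate 2 was the lowest library of both groups. Its adjusted p lay between 0.0124 and 0.0903 with each library left out, and only the fit without shEphexin1 replicate 2 kept the call. IL32 was also not called without a filter on low values (0.0274) or with eBayes moderation that ignores the mean trend (0.0261). Among the other ligands, IL11, a cytokine that signals through IL6ST, lay in the opposite direction, at 0.919, 0.628 and 1.31 FPKM in the controls and 0.613, 0.432 and 0.235 FPKM in the knockdown libraries (log2 fold change of -1.01, adjusted p = 0.151). IL15, which sustains natural killer cells, and IL7, which sustains lymphocytes, differed by less than the spread between replicates (log2 fold changes of -0.064 and 0.11). LIF, a ligand of LIFR, had a mean under 1 FPKM and an adjusted p of 0.733, and IL18BP, the secreted inhibitor of interleukin-18, was at 3.88 ± 0.523 FPKM in the controls and 4.16 ± 0.383 FPKM in the knockdown libraries (SD of 3 libraries each).

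**Figure D4:**
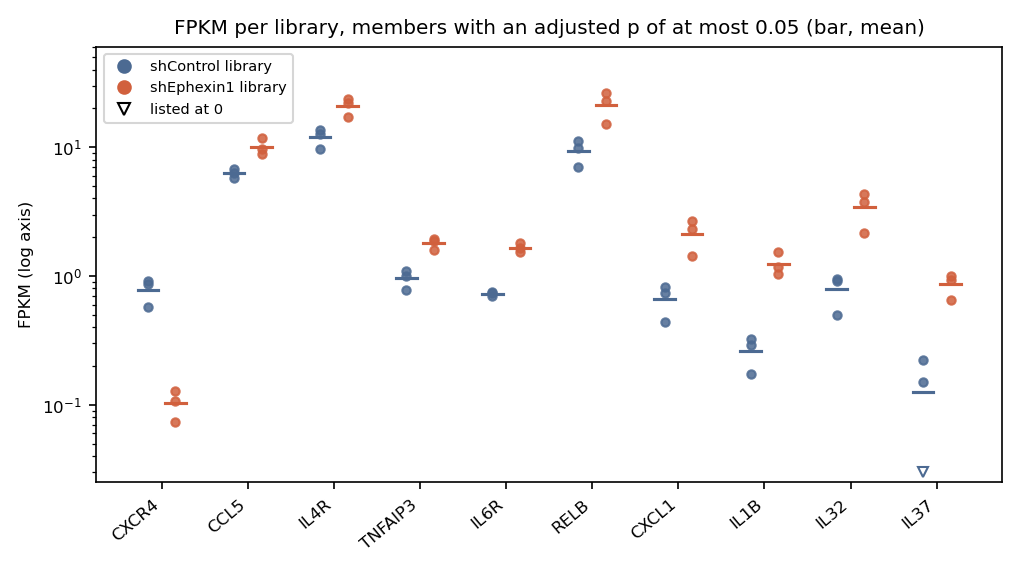
FPKM per library (log axis) of the 10 members with an adjusted p up to 0.05, for shControl (blue) and shEphexin1 (orange), with the mean as a bar and a triangle for a library listed at 0. The groups do not overlap for any of the 10 genes, and CXCR4 alone is lower in shEphexin1.

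Of 39 chemokine genes, 9 were tested and 0 were called with limma (4 of the 9 were higher and 1 was lower at an unadjusted p up to 0.05, which 23.3% of all genes reached in either direction). CXCL1 (chromosome 4, 74735110 to 74737025), which attracts neutrophils, was at 0.436, 0.815 and 0.742 FPKM in the controls and 2.65, 1.43 and 2.30 FPKM in the knockdown libraries. The mean ratio was 3.20, with a log2 fold change of 1.54 (SE 0.306, adjusted p = 0.0313), and CXCL1 rose with replicates 1 and 3 alone (1.93, adjusted p = 0.00852). Its close relative CXCL2 was the most abundant chemokine, at 23.8, 23.9 and 21.2 FPKM in the controls and 28.4, 32.3 and 25.6 FPKM in the knockdown libraries (adjusted p = 0.179). CXCL3 overlapped between the groups (adjusted p = 0.691). The 3 genes are similar in sequence, and how the counting divided reads between them is not given in the sources used here, so their separate levels are uncertain.

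CCL5, which attracts T cells, was at 6.77, 6.34 and 5.79 FPKM in the controls and 9.70, 8.83 and 11.8 FPKM in the knockdown libraries. All knockdown libraries were higher, and the log2 fold change of 0.67 (SE 0.148, adjusted p = 0.0411, 0.0178 with replicates 1 and 3 alone) was under the fold threshold. CXCL16, the membrane-anchored ligand of CXCR6, was at 0.336, 0.816 and 0.788 FPKM in the controls and 1.76, 1.20 and 1.42 FPKM in the knockdown libraries (log2 fold change of 1.13, adjusted p = 0.0900). CXCL16 lies opposite to ZMYND15 and MED11 in the annotation, and reads of overlapping genes cannot be told apart if strand was not used. CCL28, a chemokine of mucosal surfaces, was the only chemokine tested whose knockdown libraries all lay below the controls, at 2.08, 2.81 and 2.36 FPKM in the controls and 1.75, 1.59 and 1.05 FPKM in the knockdown libraries (log2 fold change of -0.71, adjusted p = 0.119).

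Of 21 chemokine receptor genes, 5 were tested and CXCR4 was called. CXCR4 (chromosome 2, 136871919 to 136876747) was at 0.909, 0.572 and 0.862 FPKM in the controls and 0.129, 0.106 and 0.0739 FPKM in the knockdown libraries. The lowest control library was above the highest knockdown library, and the means were 0.781 ± 0.182 and 0.103 ± 0.0275 FPKM (SD of 3 libraries each), a log2 fold change of -2.10 (SE 0.282, adjusted p = 0.00893). The study chose genes with a marked RNA-seq difference for RT-qPCR, CXCR4 among them, and reports that the assay bore these differences out. The decrease of CXCR4 in these libraries is not independent of that choice. The call was lost without shControl replicate 1 (adjusted p = 0.0647), without shControl replicate 3 (0.0459), without shEphexin1 replicate 1 (0.0409) and without shEphexin1 replicate 3 (0.0376). CXCR4 was low in both groups, and with a filter of 1 FPKM it was not tested. With a pseudocount of 1 FPKM the log2 fold change of CXCR4 was -0.69, and CXCR4 was not called. CXCL12, its ligand, and ACKR3, the other receptor of CXCL12, were listed at 0 in all 6 libraries.

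None of the other 4 chemokine receptors tested was called. CXCR6 was at 0.766, 1.05 and 0.676 FPKM in the controls and 1.36, 1.23 and 1.10 FPKM in the knockdown libraries (log2 fold change of 0.53, adjusted p = 0.203), and it lies opposite to the gene FYCO1. ACKR4, a scavenger of CCL19 and CCL21, was at 0.942, 1.52 and 0.745 FPKM in the controls and 1.38, 2.2 and 0.988 FPKM in the knockdown libraries, which overlap, and it lies opposite to ACAD11. CCR10, the receptor of CCL27 and CCL28, ranged from 1.11 to 2.58 FPKM in the controls and from 0.942 to 2.2 FPKM in the knockdown libraries.

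Of 43 interleukin receptor genes, 22 were tested, and 17 of these had a mean of at least 1 FPKM. IL13RA2, a decoy receptor of interleukin-13, was the highest, at 75.8, 88.4 and 73.5 FPKM in the controls and 85.1, 109 and 76.0 FPKM in the knockdown libraries. IL6ST, the gp130 chain shared by the interleukin-6 family, was next, at 49.8, 64.6 and 44.9 FPKM in the controls and 69.5, 97.2 and 61.5 FPKM in the knockdown libraries. In shControl the libraries of these genes did not overlap, and in shEphexin1 they did. IL31RA, at 23.9 ± 1.56 FPKM in shControl (SD, n = 3), was followed by IL13RA1 and IL10RB, both with a mean of 15.4 FPKM and overlapping libraries.

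Only IL6R was called. IL6R (chromosome 1, 154377669 to 154441926) was at 0.702, 0.751 and 0.734 FPKM in the controls and 1.65, 1.80 and 1.54 FPKM in the knockdown libraries. Both groups were tight, at 0.729 ± 0.0246 and 1.66 ± 0.131 FPKM (SD of 3 libraries each), and the log2 fold change was 1.09 (SE 0.174, adjusted p = 0.0163). The call was lost with any 1 of the 6 libraries left out, at adjusted p values from 0.0328 to 0.0918, and with replicates 1 and 3 alone it remained (0.0235). IL6R was also not called without a filter on low values (0.0254), after quantile normalization (log2 fold change of 0.97, adjusted p = 0.0272) or with a pseudocount of 1 FPKM (log2 fold change of 0.62). Its signalling partner IL6ST had a log2 fold change of 0.51 (adjusted p = 0.192, 0.0227 with replicates 1 and 3 alone), and its groups overlapped, replicate 2 being the highest library of both. IL6 itself was listed at 0 in every library. The antisense gene IL6R-AS1 overlaps IL6R.

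The other chains that work with IL6ST or with OSMR differed in sign, and none was called. IL27RA, the interleukin-27 receptor chain, was at 6.30, 4.48 and 8.43 FPKM in the controls and 11.8, 8.60 and 12.4 FPKM in the knockdown libraries (log2 fold change of 0.79, adjusted p = 0.109, 0.0246 with replicates 1 and 3 alone). LIFR was at 1.14, 1.22 and 0.996 FPKM in the controls and 1.45, 1.95 and 1.21 FPKM in the knockdown libraries (log2 fold change of 0.41, adjusted p = 0.323). OSMR, the oncostatin M receptor chain, was at 8.78, 11.3 and 8.82 FPKM in the controls and 8.60, 8.06 and 7.35 FPKM in the knockdown libraries, which did not overlap, and its log2 fold change was -0.26 (adjusted p = 0.350). OSMR lies opposite to RICTOR in the annotation. IL11RA, the interleukin-11 receptor chain, had a log2 fold change of 0.12 (SE 0.211), and IL31RA, which pairs with OSMR, one of 0.16 (SE 0.119).

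In the receptor for interleukin-4 and interleukin-13, the chain IL4R was at 12.6, 9.63 and 13.6 FPKM in the controls and 22.1, 17.1 and 23.5 FPKM in the knockdown libraries. The groups did not overlap, the mean ratio was 1.75, and the log2 fold change of 0.81 (SE 0.179, adjusted p = 0.0411, 0.00559 with replicates 1 and 3 alone) was below the fold threshold. Its partner IL13RA1 was at 15.3, 16.7 and 14.2 FPKM in the controls and 19.5, 23.1 and 17.5 FPKM in the knockdown libraries (log2 fold change of 0.37, adjusted p = 0.160). The decoy IL13RA2 overlapped between the groups (log2 fold change of 0.17, SE 0.153). IL22RA1, the interleukin-22 receptor chain, was at 0.897, 0.866 and 1.36 FPKM in the controls and 2.14, 1.64 and 1.89 FPKM in the knockdown libraries (log2 fold change of 0.82, adjusted p = 0.0735), whereas its partner IL10RB had a log2 fold change of 0.049 (SE 0.109).

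Among the interleukin-17 receptor genes, IL17RB, which binds interleukin-25, was at 1.34, 1.69 and 1.41 FPKM in the controls and 1.04, 0.870 and 0.765 FPKM in the knockdown libraries (log2 fold change of -0.67, adjusted p = 0.0940). IL17RA, the chain common to this family, was at 2.55, 2.21 and 2.80 FPKM in the controls and 3.31, 2.64 and 3.41 FPKM in the knockdown libraries, and IL17RC at 10.7 ± 2.93 and 11.5 ± 2.31 FPKM (SD of 3 libraries each). Both overlapped between the groups. IL17RE, which binds interleukin-17C, was at 0.342, 0.457 and 0.391 FPKM in the controls and 0.785, 0.905 and 0.745 FPKM in the knockdown libraries, a mean ratio of 2.05 without overlap (log2 fold change of 0.88, adjusted p = 0.0575), and is named after its values were seen. IL15RA had a log2 fold change of 0.41 (SE 0.184) and also overlapped. IL12RB2 encodes a chain of the interleukin-12 receptor and was also among the genes chosen for RT-qPCR, whose differences the study reports as borne out. It was at 0.107, 0.0234 and 0.0521 FPKM in the controls and 0.381, 0.135 and 0.193 FPKM in the knockdown libraries. The groups did not overlap, and at these levels the fitted log2 difference was 1.03 (SE 0.396, adjusted p = 0.174).

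**Figure D5:**
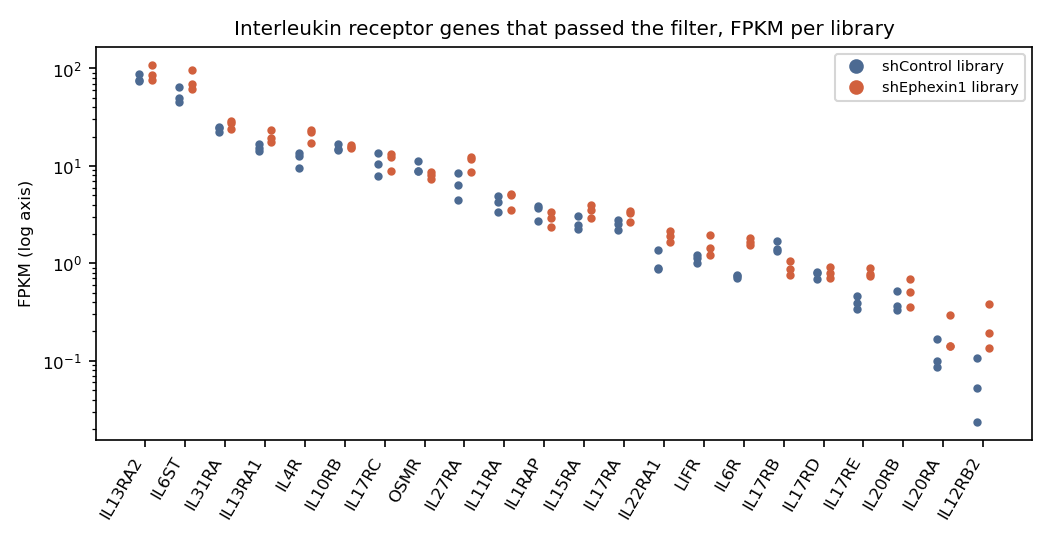
FPKM per library (log axis) of the 22 interleukin receptor genes tested, ordered by the mean over all 6 libraries, for shControl (blue) and shEphexin1 (orange). Levels run from IL13RA2 at 73.5 to 109 FPKM down to IL12RB2 at 0.0234 to 0.381 FPKM.

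The pathways these receptors feed were read from 4 further gene lists. Of 32 other NF-κB pathway genes, 31 were tested, 1 was called higher and 0 lower (0.893% and 0.999% of all genes), and the median log2 fold change was 0.13. The gene called was BIRC3, which encodes the ubiquitin ligase cIAP2. It was at 3.15, 3.96 and 3.10 FPKM in the controls and 8.21, 10.4 and 6.71 FPKM in the knockdown libraries (log2 fold change of 1.27, SE 0.193, adjusted p = 0.0139). BIRC3 was not called without shControl replicate 1 (adjusted p = 0.0850), shControl replicate 3 (0.0573), shEphexin1 replicate 1 (0.0753) or shEphexin1 replicate 3 (0.0267). IRAK4, a kinase of the interleukin-1 receptor, was at 10.7 ± 0.860 and 15.7 ± 1.61 FPKM (SD of 3 libraries each, log2 fold change of 0.56, adjusted p = 0.0444, 0.0177 with replicates 1 and 3 alone). The most abundant genes of the list, TNFRSF1A, a tumour necrosis factor receptor, and IRAK1, another interleukin-1 receptor kinase, had log2 fold changes of 0.36 (adjusted p = 0.211) and -0.11 (adjusted p = 0.851).

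Of 26 JAK, STAT and SOCS genes, 22 were tested and 0 were called with limma (1.89% of all genes). At an adjusted p up to 0.05, 2 were higher and 1 was lower (2.69% and 4.32% of all genes). At an unadjusted p up to 0.05 the numbers were 3 and 4 (23.3% of all genes in either direction). SOCS1, a feedback inhibitor of cytokine receptors, was at 0.425, 0.959 and 0.361 FPKM in the controls and 2.54, 1.33 and 2.47 FPKM in the knockdown libraries (log2 fold change of 1.75, adjusted p = 0.0404, 0.00328 with replicates 1 and 3 alone, where it rose). SOCS2, another SOCS inhibitor, had a log2 fold change of 0.82 (adjusted p = 0.0428). PTPN2, a phosphatase of JAK kinases, was at 19.9 ± 1.28 FPKM in the controls and 13.4 ± 1.53 FPKM in the knockdown libraries (SD of 3 libraries each, log2 fold change of -0.57, adjusted p = 0.0403, 0.00928 with replicates 1 and 3 alone). The kinase JAK1 and the phosphatase PTPN11, the most abundant of the list, had log2 fold changes of 0.10 (adjusted p = 0.572) and -0.38 (adjusted p = 0.0697, 0.0245 with replicates 1 and 3 alone), and the median of the list was 0.0052.

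In 26 genes that act with chemokine receptors, 24 were tested and 0 were called with limma (1.89% of all genes), none of them at an adjusted p up to 0.05. At an unadjusted p up to 0.05, 2 were higher and 2 lower (23.3% of all genes in either direction). MIF, a cytokine that can bind CXCR4, and GNAI2, an inhibitory G protein subunit, were the most abundant, with log2 fold changes of -0.085 and -0.068. Of 25 other cytokine and receptor genes, 18 were tested and 1 was called (1.89% of all genes). This was LTB, a membrane-bound lymphotoxin, at 0.328, 0.254 and 0.225 FPKM in the controls and listed at 0 in all shEphexin1 libraries. LTB passed the filter only through its control libraries, so the direction of its call is not independent of the filter. It was not called with any 1 of the 6 libraries left out, nor with replicates 1 and 3 alone (adjusted p = 0.0434). TGFB1, the ligand TGF-β1, and IFNGR2, a chain of the interferon-γ receptor, were the most abundant and had log2 fold changes of 0.71 (adjusted p = 0.0811, 0.00339 with replicates 1 and 3 alone) and 0.065 (adjusted p = 0.777).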

How the data were processed

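RNA-seq was analysed from 6 H1299 libraries, 3 shControl and 3 shEphexin1, grouped by their labels. Per the labels and the study's methods, reads were aligned by the authors with TopHat 2.0.13 against GRCh37/hg19, and Cuffdiff (Cufflinks 2.2.1) gave FPKM with geometric normalization of the libraries. The deposited FPKM hold no counts, so depth and counting error are unknown, and 0 value columns were left out. The gene annotation and the use of strand are not given in the sources used here.

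A gene was tested if 3 or more of the 6 libraries reached 0.1 FPKM (16020 of 26255). Values were transformed as log2(FPKM + 0.1), which understates the change of low genes, and fitted in limma 3.58.1 under R 4.3.3 (eBayes moderation along the mean trend), and p values were adjusted by Benjamini-Hochberg over all genes tested. The fit was tested on simulated data. Means carry the SD over 3 libraries. The study says in general that its experiments were repeated at least 3 times, but nothing says that these libraries came from separate cultures.

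Members and lists were chosen with earlier results of these data known. Named members were those called, those at an adjusted p up to 0.05, those with a mean of at least 1 FPKM, those with no overlap and a fold of at least 2, and CXCR4 and IL12RB2. Others are named for background or after their values were seen. From the lists, genes called or at an adjusted p up to 0.05 and the 2 most abundant were named. Positions are from GENCODE 44 on GRCh37, and promoters from RefSeq on GRCh38.p14. Python 3.11.15 with pandas 2.3.3 and matplotlib 3.10.9 was used. Alternatives were other pseudocounts, filters, scalings, moderation, a replicate block, a term for replicate 2, replicates 1 and 3 alone, other thresholds and each library left out.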

Additional observations from a re-analysis of the deposited data

How the results depend on the processing

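With all 6 libraries, the number of all genes called was 303 and that of members 4, 3 higher and 1 lower. With a pseudocount of 1 FPKM, which lowers the fold of low genes, 139 genes and 1 member (higher) were called, and 0 members were lower. Without a filter, 287 genes and 2 members were called, 1 of these members higher. With a filter of 1 FPKM, 213 genes and 3 members were called. These 3 members were higher, and 0 members were called lower, because CXCR4 was not tested. At an adjusted p up to 0.05 with the fold of 2 kept, 464 genes and 7 members (6 higher) were called, and at 0.025 with no fold threshold 546 genes. The term for replicate 2 gave 564 genes and 7 members (6 higher), and replicates 1 and 3 alone gave 430 genes and 7 members (6 higher). Replicates 1 and 3 alone also gave 43 members without overlap between the groups in place of 27, as fewer libraries were compared (61.8% of all genes in place of 28.3%). Across the 6 fits with 1 library left out, between 61 and 316 genes, between 0 and 5 members, between 0 and 4 higher members and between 0 and 1 lower members were called.

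Of the JAK, STAT and SOCS genes, 0 were called with all libraries and 1 at an adjusted p of at most 0.05 (with a fold of 2), with the term for replicate 2 or with replicates 1 and 3 alone. The NF-κB list had between 0 and 1 gene called with each library left out. LTB, the 1 gene called of the other cytokines and receptors, was not called with either other pseudocount, the filter of 1 FPKM, replicates 1 and 3 alone or any library left out (0 called).

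With replicate number as a block, the number of all genes called was 556, and 7 members, 6 of them higher, and 1 JAK, STAT and SOCS gene were called. The labels do not say that the numbers pair the libraries, and same-numbered deviations from the group mean correlated at 0.0914, 0.430 and 0.328, so the block is only a description. The term for replicate 2 rests on the same numbers and is only a description too.

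Of 794 values of the 47 named genes under alternatives, 733 kept their direction and side of the threshold, 39 lost the call, 15 gained it and 7 changed sign. The sign changes were CCR10 at 0.066 with replicates 1 and 3 alone, and 5 genes with 1 library left out, over which the log2 fold change ranged from -0.38 to 0.26 for CCR10, from -0.021 to 0.30 for IL11RA, from -0.16 to 0.054 for IL15, from -0.080 to 0.32 for IL17RC and from -0.059 to 0.31 for IL7. The cause of these changes was not tested. Without read counts, differences among genes under 1 FPKM cannot be set against counting error.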
